A study of Homo sapiens with 124 samples.

Results

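The histone gene clusters and the major histocompatibility complex (MHC) lie next to each other on the short arm of chromosome 6, and their contacts with the nuclear lamina were read in single human cells. The members were the 100 kb bins of the deposited table, in hg19 coordinates, that start in the stretches given here; membership of a bin rests on its position, and the stretches were chosen with earlier results of these data known. The histone clusters took 13 bins, 4 from 26000001 to 26400000 and 9 from 27000001 to 27900000. The extended class I region, which also holds olfactory receptor genes, took 16 bins from 28000001 to 29600000. Class I took 19 bins from 29600001 to 31500000, class III 7 bins from 31500001 to 32200000 and class II 12 bins from 32200001 to 33400000. All 67 of these bins were usable, of 26426 usable bins in the genome, or 0.254%.

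The cells were KBM7, a near-haploid line from a human chronic myeloid leukaemia, all of clone 14, labelled haploid (1N) and carrying Dam fused to LaminB1. Every cell had 15 h of 0.5 nM Shield1, a small molecule that stabilises the fusion protein, and was sorted among the smallest 2% of cells with both Fucci cell cycle markers. Dam methylates adenine in GATC near the lamina, and the methylated sites are cut, amplified and sequenced. The table held 118 of the 124 cells, which form 1 group from 1 clone; cells with unfused Dam were not analysed here. The labels name no separate cultures, so the cells count as 1 sample, no p-values are given, and SDs measure the spread between cells.

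The nuclear lamina is a protein mesh under the nuclear envelope, and regions that touch it are known to be mostly gene-poor and weakly transcribed. Class I and class II genes encode the surface proteins that present peptides to T cells, and class III holds complement genes (C2, CFB, C4A, C4B) and cytokine genes (TNF, LTA, LTB). The histone genes of this arm are transcribed during S phase and supply the core histones and linker histones for new chromatin. Olfactory receptor genes are read in sensory neurons of the nose and are known to be silent in most other cells.

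In RefSeq's gene order on GRCh38, the first histone block from H1-1 to H4C8 lists 33 coding genes, of which 32 encode histones and the other is HFE, a regulator of iron uptake. The second block, from H2BC11 to H2BC17, lists 26, with 21 histone genes. Both blocks together list 6 H1, 11 H2A, 14 H2B, 10 H3 and 12 H4 genes. The extended class I block opens with OR2B2 and OR2B6, goes on with zinc finger and SCAN domain genes, and ends with a series from OR2W1 to OR2H2 in which 14 of 16 coding genes are olfactory receptors, followed by GABBR1, a receptor gene for the transmitter GABA. The class I block from MOG to MICB lists 51 coding genes, 6 of them HLA genes. The class III block from MCCD1 to NOTCH4 lists 59, and the class II block from TSBP1 to TAPBP lists 32, with 13 HLA genes. The order was used for names only, and no gene was placed in an hg19 bin.

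Because Dam reads GATC, the 250 bases upstream of gene starts are shown for 5 genes of these groups, from RefSeq's GRCh38.p14 promoter table, 5′ to 3′ on the strand of the gene. Capitals mark GATC, which reads the same on both strands. Of all 35116 such windows, 35.8% hold at least 1 GATC. The share was 17.3% of 52 windows of histone genes, 21.4% of 14 windows of the olfactory receptor series, 28.6% of 63 windows of the class I block, 31.2% of 77 of the class III block and 50% of 42 of the class II block. The windows matched 48 of 53 histone genes, 13 of 14 olfactory receptors, 45 of 51, 53 of 59 and 30 of 32 genes. OR2J2 and OR2H1 come from the olfactory receptor series, H2AC11 from the second histone block, HLA-B is a classical class I gene, and HLA-DMA helps to load peptides onto class II molecules.
OR2J2, chr6:29170657-29170906, plus strand: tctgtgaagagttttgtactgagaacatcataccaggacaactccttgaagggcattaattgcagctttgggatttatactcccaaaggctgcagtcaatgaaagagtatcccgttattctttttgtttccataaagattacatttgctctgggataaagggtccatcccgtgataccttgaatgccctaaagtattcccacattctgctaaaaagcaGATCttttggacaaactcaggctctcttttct
OR2H1, chr6:29456905-29457154, plus strand: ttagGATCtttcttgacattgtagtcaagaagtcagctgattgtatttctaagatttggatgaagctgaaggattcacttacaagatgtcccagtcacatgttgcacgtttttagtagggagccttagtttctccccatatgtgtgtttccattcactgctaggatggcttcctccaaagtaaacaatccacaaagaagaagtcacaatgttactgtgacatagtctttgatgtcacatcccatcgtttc
H2AC11, chr6:27132793-27133042, plus strand: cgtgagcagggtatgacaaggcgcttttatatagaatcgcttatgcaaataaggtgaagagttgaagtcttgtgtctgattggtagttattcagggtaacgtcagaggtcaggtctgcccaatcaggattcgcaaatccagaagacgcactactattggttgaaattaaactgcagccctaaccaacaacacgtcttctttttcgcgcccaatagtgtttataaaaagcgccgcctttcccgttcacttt
HLA-B, chr6:31357180-31357429, minus strand: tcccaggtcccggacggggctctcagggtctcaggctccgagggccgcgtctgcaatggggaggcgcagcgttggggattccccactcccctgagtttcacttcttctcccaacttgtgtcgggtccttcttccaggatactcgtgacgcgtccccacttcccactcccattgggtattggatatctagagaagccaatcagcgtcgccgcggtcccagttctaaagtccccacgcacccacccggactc
HLA-DMA, chr6:32953098-32953347, minus strand: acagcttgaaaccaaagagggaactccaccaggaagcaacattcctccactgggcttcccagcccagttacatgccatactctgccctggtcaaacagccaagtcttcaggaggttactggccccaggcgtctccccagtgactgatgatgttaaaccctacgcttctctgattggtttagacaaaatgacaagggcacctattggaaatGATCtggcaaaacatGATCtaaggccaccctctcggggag
OR2J2 and OR2H1 have 1 GATC each and HLA-DMA has 2, whereas the windows of H2AC11 and HLA-B have none. These windows cover little of a 100 kb bin, and the expected part of the ratio, recovered from the steps of the values, describes the bins themselves. Its median was 0.991 times the genome median in the histone clusters, 1.01 times in extended class I, 0.984 in class I, 0.946 in class III and 1.01 in class II. The subregions were thus close to the genome median in expected reads.

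Contact was scored where the ratio of observed to expected reads was 1 or more, and contact frequency means the share of the 118 cells that scored, in percent. Recovered reads over the usable bins ranged from 28372 to 385661 (median 135782.5), and for the median bin and cell a ratio of 1 meant 5.63 reads. For 14 cells it meant fewer than 3. The mean ratio over the members was 0.061 in the 90 cells numbered 1 to 94 and 0.174 in the 28 cells numbered 96 to 124. In the same order it was 0.938 and 0.93 over all usable bins and 1.12 and 1.02 in the rest of chromosome 6. In the rarely contacted 2 Mb downstream of class II it was 0.0109 and 0.0983, so the higher ratio of the later set was not particular to the members. That split is seen in the data and is not a group of the labels; values are also given for both sets, and its part in the results was not tested.

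The histone clusters and the MHC were almost free of lamina contact, apart from a short island in extended class I. On average a cell had 1.64% ± 2.87 (SD, n = 118) of the 67 member bins in contact, against 38.8% ± 8.44 in the rest of chromosome 6. The rest of the chromosome exceeded the members in 118 of 118 cells, by 37.2 percentage points ± 8.61. Against the other chromosomes the difference was 31 points ± 5.84, again in the same direction in 118 of 118 cells. Cells 1 to 94 had a mean of 1.41% for the members, and the later set had 2.4%. No member bin reached a frequency of 80%, where 15.1% of all usable bins lie, 1 of 67 was at 20 to under 80%, against 33.9%, and 29 of 67 were above 0 and under 20%, against 28.8%. In all, 62 of 67 member bins were at 5% or less (background 38.8%) and 37 of 67 had no contact in any cell (background 22.3%). Bins without contact were 17 of 19 in class I, 6 of 7 in class III and 6 of 12 in class II. The histone clusters had 3 of 13 (23.1%), near the background, and extended class I had 5 of 16 (31.2%). The median member bin had a frequency of 0%, against 17.8% over all usable bins.

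**Figure D1:**
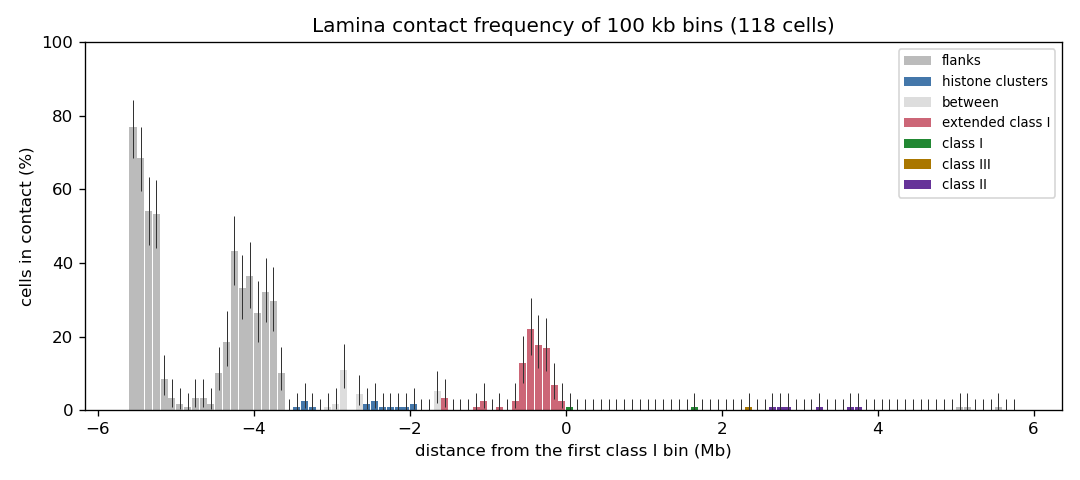
Contact frequency of each usable bin in percent of 118 cells, against the distance in Mb from the first class I bin, with exact 95% Clopper-Pearson intervals as lines. The bars of extended class I rise to 22.0% in the bin from 29100001 and fall to 2.54% in the bin from 29500001, at the class I border. Those of class I, III and II stay at or under 0.847%.

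Single cells showed the same picture. A cell had 1.1 ± 1.92 member bins in contact (SD, n = 118), with a median of 0 and a highest count of 10 in cell 9. No member bin was in contact in 71 of 118 cells, 20 cells had 1 and 10 cells had 5 or more. The 130 contacts of the members came as 85 from cells 1 to 94 and 45 from cells 96 to 124.

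**Figure D2:**
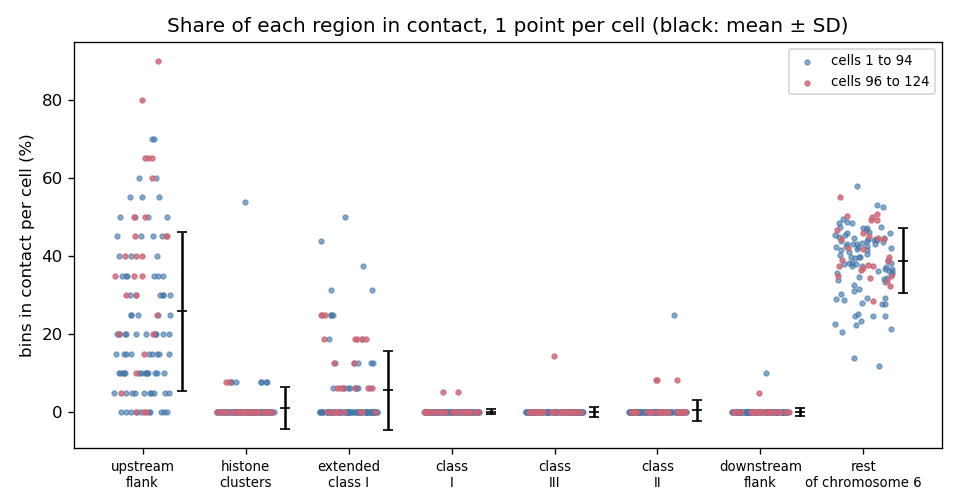
Percentage of the bins of each region in contact, 1 point per cell, with cells 1 to 94 in blue, cells 96 to 124 in red and the mean ± SD in black (n = 118). The points of class I, class III and class II lie almost all at 0, extended class I reaches 50% in cell 19 and the rest of chromosome 6 averages 38.8%.

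Of the histone bins, the average cell had 1.04% ± 5.31 in contact (SD, n = 118), and 108 of 118 cells had no contact there. Their 13 bins had 0 to 3 cells in contact each, 16 contacts in all. In the first stretch the bin from 26200001 to 26300000 was highest with 3 cells (2.54%, exact 95% interval 0.527 to 7.25%), the bins from 26100001 and 26300001 had 1 cell each, and the bin from 26000001 had none. In the second stretch the bin from 27100001 had 3 cells, and the last pair of bins, from 27700001 to 27900000, had none. The first stretch had a mean of 1.06% ± 5.06 and the second 1.04% ± 7.41, and the second minus the first was -0.0235 points ± 9.09. Without cell 9 the means were 1.07 and 0.38%. The mean over both stretches was 1.2% for cells 1 to 94 and 0.549% for the later set. Reads were few but present, with 43 over all cells in the bin from 26000001, 107 in the bin from 26200001 and 30 in the bin from 27700001.

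A single cell carried most of the contacts of the second stretch. Cell 9 had 77.8% of its bins in contact, in a run of 10 usable bins from 26600001 to 27700000 that began in the stretch between the histone blocks. There the run passes over the bin from 26800001, which was not usable. It also takes in the bins from 26700001 and 26900001, with expected parts of 0.108 and 0.263 times the genome median. Each of these bins held 19 reads over all cells, so the part of the run between the blocks rests on few reads. Ratios of cell 9 in this run were 3.03 in the bin from 27600001, 2.32 in the bin from 27200001 and 2.04 in the bin from 27500001, and the 4 bins from 27200001 to 27600000 had no contact in any other cell. Without cell 9 the mean of both stretches together fell to 0.592%. The other runs touching the second stretch were shorter. All 5 runs touching the first stretch were of 1 bin.

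Upstream of the histone clusters, the 2 Mb flank from 24000001 to 26000000 had a mean share in contact of 25.8% ± 20.4 (SD, n = 118), and 105 of 118 cells had some contact there. It exceeded the histone clusters by 24.8 points ± 20.3, with the flank higher in 105 cells, both equal in 12 and the clusters higher in 1. The flank had 22.3% in cells 1 to 94 and 37.1% in the later set, and the differences from the clusters were 21.1 and 36.6 points. The flank itself was uneven. Its first bin was in contact in 91 cells (77.1%), the frequency dropped from 63 to 10 cells between the bins from 24300001 and 24400001, and it rose from 22 to 51 cells between the bins from 25200001 and 25300001. The 35 cells in contact in the bin from 25800001 became 12 in the bin from 25900001 and 0 in the first histone bin, from 26000001. Frequency thus fell to 0 at the histone border within 2 bins.

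Extended class I was the most contacted subregion, at a mean share of 5.56% ± 10.1 (SD, n = 118), and 40 of 118 cells had some contact. The highest share was 50% in cell 19. The mean was 4.72% ± 10.3 in cells 1 to 94, where 24 cells had contact, and 8.26% ± 9.17 in cells 96 to 124, where 16 cells had contact. It exceeded the histone clusters by 4.52 points ± 10.7, higher in 38 cells, equal in 73 and lower in 7. It was lower than the rest of chromosome 6 by 33.3 points ± 12.6, and 4 of 118 cells went the other way.

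Contact in extended class I was concentrated near the class I border. The bins from 28000001 to 29000000 had 0 to 4 cells in contact each, and 5 of these 10 bins had none. The 4 cells were in the first of them, from 28000001, next to the stretch that separates it from the histone genes, and the highest ratio among the 10 bins was 1.78, in cell 119. The bins that followed, from 29000001 to 29500000, were the only 5 of 67 members above 5% (background 61.2%), and with 90 of 130 contacts they held 69.2% of all contacts of the members. This island was picked by its values, so its levels are a description. In RefSeq's order the olfactory receptor series is likewise the last group of extended class I before GABBR1 and MOG, but whether its genes lie in these bins was not tested.

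In the island, the bin from 29000001 was in contact in 15 cells (12.7%, exact 95% interval 7.29 to 20.1%). The bin from 29100001 was highest with 26 cells (22.0%, 14.9 to 30.6%). The bins from 29200001 and 29300001 had 21 cells (17.8%) and 20 cells (16.9%). The bin from 29400001 had 8 cells (6.78%, 2.97 to 12.9%). Intervals of the 3 middle bins overlapped, and those of the bins from 29100001 and 29400001 did not. Each interval covers 1 bin alone, while the bins were read in the same cells and picked by their values. The order of the bins was thus not resolved. On the upstream side 3 cells were in contact in the bin from 28900001, and on the downstream side 3 cells in the bin from 29500001. The bin from 29100001 had 17.8% of cells 1 to 94 and 35.7% of cells 96 to 124 in contact, and the bin from 29400001 had 4.44 and 14.3%. Both sets had contact in each of the 5 bins.

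Ratios in the island were spread over a wide range. In the bin from 29200001 the lowest value over cells was 0, the median 0.15 and the highest 9.36, in cell 12. In the bin from 29100001 the median was 0.155 and the highest value 3.76, in cell 9, and in the bin from 29300001 they were 0.117 and 4.46, in cell 43. Between 54 and 63 of 118 cells had no read in each of these bins. Median ratios over cells in contact were 1.56, 1.37, 1.93, 1.52 and 1.24 along the island. At a ratio of 2 or more, 4, 4, 10, 7 and 1 cells remained in the 5 bins. Medians over cells 1 to 94 were 0 in all 5 bins, and over cells 96 to 124 they were 0.26 to 0.686.

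**Figure D3:**
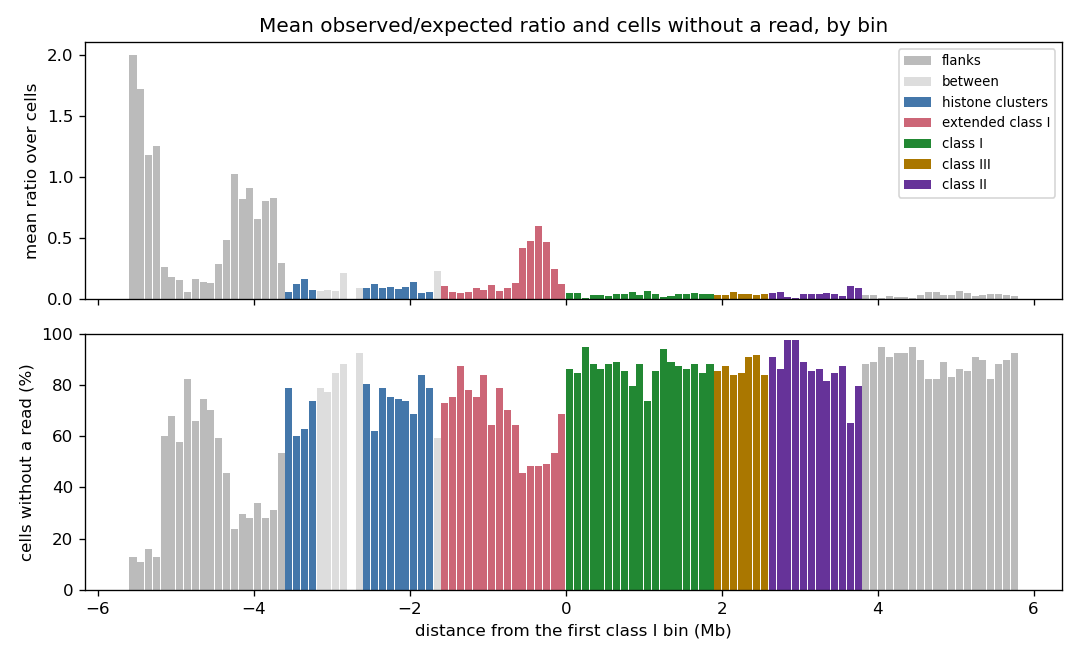
Mean observed/expected ratio over 118 cells (top) and percentage of cells without a read (bottom) for each usable bin, against the distance in Mb from the first class I bin, coloured by region. The mean ratio reaches 0.593 in the island of extended class I, where 45.8 to 53.4% of cells had no read, and most bins of class I, III and II lie above 80% without a read.

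Where a cell touched the lamina in the island, it often did so over several bins. None of the 5 bins was in contact in 81 cells, 1 bin in 12 cells, 2 bins in 8, 3 bins in 10, 4 bins in 3 and all 5 in 4 cells. The 4 cells with all 5 bins were cells 19, 43, 48 and 59, all numbered under 95, and their contact shares over the genome were 38.4, 26.8, 39.2 and 34.7%. Of the 26 cells in contact in the bin from 29100001 and the 21 in the bin from 29200001, 17 were the same cells, and the correlation of their contacts over cells was 0.66 (0.67 with each cell's genome-wide contact share removed). For bins 4 apart, from 29000001 and 29400001, it was 0.4. Depth and contact share are common to the bins of a cell, and no p is given.

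Runs touching the island numbered 43 in 37 cells, with a mean length of 0.221 Mb and a longest run of 0.7 Mb, in cell 19 from 28900001 to 29600000. Single-bin runs made up 21 of the 43, and 14 spanned 3 or more bins. Over all runs of all cells, the mean length was 0.499 Mb and 37.6% were of 1 bin. The island was picked by its values and lies between rarely contacted bins, which limits the length of its runs. None of the 43 runs reached class I, whose first bin was in contact only in cell 108, a cell without contact in the island. The runs of cells 19, 48 and 59 ended exactly at the class I border, at 29600000.

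**Figure D4:**
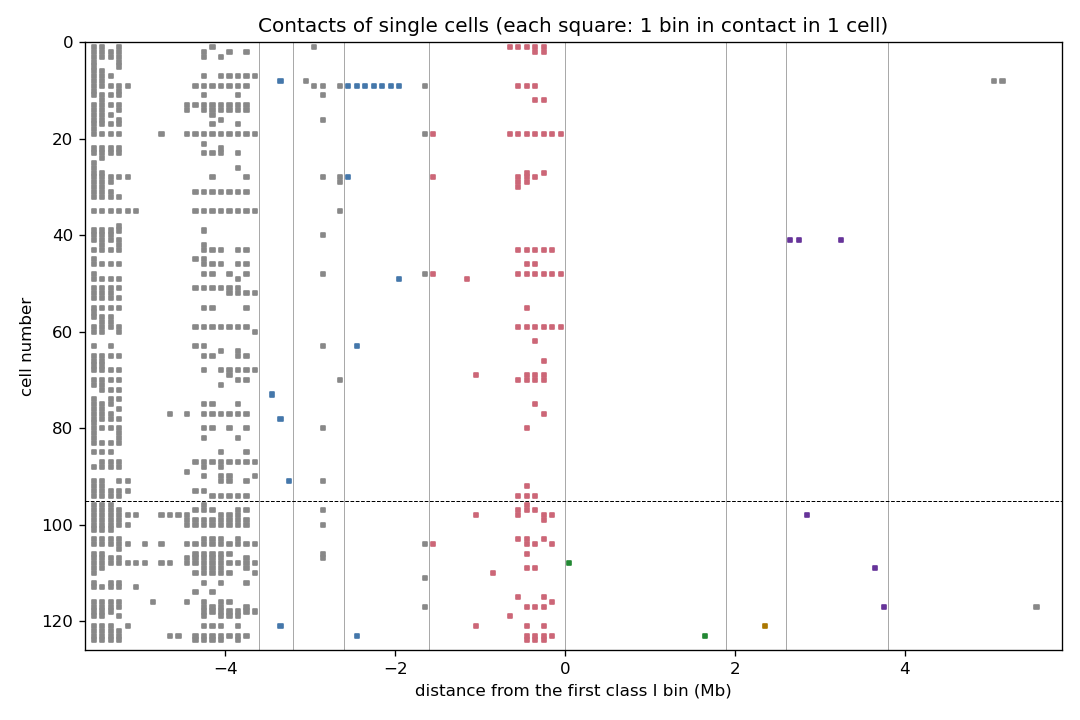
Bins in contact in single cells, with the distance in Mb from the first class I bin on the horizontal axis and the cell number on the vertical axis; grey squares are flanks and the stretches between members, and blue, red, green, ochre and purple squares are histone clusters, extended class I, class I, class III and class II. Vertical lines mark the borders of the regions and the broken line separates cells 1 to 94 from cells 96 to 124. The row of blue squares is the run of cell 9, and almost no square lies to the right of 0.

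Class I, with HLA-B and HLA-C, had almost no contact, at a mean share of 0.0892% ± 0.682 (SD, n = 118). It had 2 contacts among 2242 pairs of bin and cell. Of its 19 bins, 17 had no contact in any cell, among them the 15 bins from 29700001 to 31200000, or 1.5 Mb, which is the 48th longest of 1555 such stretches in the genome, where the longest spans 5.8 Mb. The 2 contacts were a ratio of 1.09 in cell 108, in the first bin, and 1.06 in cell 123, in the bin from 31200001, each from 5 reads. Extended class I exceeded class I by 5.47 points ± 10.1, higher in 40 cells, equal in 77 and lower in 1. The step at the border itself was from 3 cells to 1. Without cell 108 the mean of class I fell to 0.045%. Reads over all cells ranged from 7 in the bin from 29800001, where 112 cells had none, to 69 in the bin from 30600001, where 87 cells had none. The count of 7 is a lower bound, since few cells had a read there.

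Class III, with the complement and TNF genes, had 1 contact among 826 pairs, or 0.121% ± 1.32 per cell. It was a ratio of 1.21 from 7 reads in cell 121, in the bin from 31900001, and the other 6 bins had none. Without cell 121 the mean was 0%. Class I and class III differed by -0.0319 points ± 1.49, and 115 of 118 cells were equal at 0. Where 0 of 118 cells scored, a frequency of up to 2.54% is still allowed (3 counts), and the exact interval reaches 3.08%; both cover the counting of cells only.

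Class II, with HLA-DR, HLA-DQ and HLA-DP genes and the peptide transporter genes TAP1 and TAP2, had 6 contacts among 1416 pairs, or 0.424% ± 2.63 per cell. Of its 12 bins, 6 had 1 cell in contact and 6 had none, so they have no order. Cell 41 gave 3 of the 6 contacts, with a ratio of 2.23 from 9 reads in the bin from 32200001, 2.05 from 14 reads in the next bin and 1.17 from 7 reads in the bin from 32800001. Without cell 41 the mean of class II fell to 0.214%. The 3 other contacts were ratios of 1.24, 1.06 and 1.3, in cells 98, 109 and 117. Class II exceeded class I by 0.335 points ± 2.74, higher in 4 cells, equal in 112 and lower in 2, a difference that rests on few cells.

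From class I to class II the MHC thus gave 9 contacts among 4484 pairs of 38 bins and 118 cells, or 0.201%, in 7 cells. Of these cells, 6 were numbered 96 to 124 and 1 was cell 41. Mean ratios were 0.0371 ± 0.059 in class I, 0.0383 ± 0.0677 in class III and 0.0461 ± 0.0862 in class II (SD, n = 118), against 0.196 ± 0.235 in extended class I and 0.0946 ± 0.139 in the histone clusters. In cells 1 to 94 they were 0.0153, 0.017 and 0.0209, and in cells 96 to 124 they were 0.107, 0.107 and 0.127. The histone clusters had 0.0668 and 0.184, and extended class I 0.16 and 0.311. No read was present in 86.8% of the pairs of class I, 86.8% of class III and 85.9% of class II, against 73.2% in the histone clusters, 66.5% in extended class I and 45.6% over all usable bins.

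The single bins with the fewest reads lay in class II, although class II had a lower share of pairs without a read (85.9%) than class I or class III. The bin from 32500001 to 32600000 had 3 reads over all 118 cells and the bin from 32400001 had 5, and 115 of 118 cells had no read in either. The expected part of these bins was 0.658 and 0.782 times the genome median, while the next bin, from 32600001, had 22 reads at 1.01 times. With reads in so few cells, the recovered reads and expected part are the lowest that fit the values. Recovery in such bins was not tested. At the other end of class II the bin from 33200001 had 101 reads, and 77 of 118 cells had no read there.

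The low contact of the MHC went on downstream. The 2 Mb flank from 33400001 to 35400000 had 0.127% ± 1.03 (SD, n = 118), with 3 contacts, 2 of them in cell 8, and 17 of its 20 bins had none. Without cell 8 its mean was 0.0427%. Class II exceeded it by 0.297 points ± 2.72, with 113 cells equal. The upstream flank exceeded the downstream flank by 25.7 points ± 20.5, in 104 cells, with 14 equal and none the other way. Bins at 5% or less formed an unbroken stretch of 9.3 Mb from 29500001 to 38800000, which took in 39 member bins. Its mean frequency was 0.392%, 96 of 118 cells had no contact in it, and by length it ranked 12th of 1154 such stretches. The members before the island fell into shorter stretches at 5% or less, 0.7 Mb from 26000001, 1 Mb from 26900001 and 1 Mb from 28000001.

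The shares of extended class I and of the upstream flank were correlated over cells. Of 40 cells with contact in extended class I, 38 had contact in the flank, as did 67 of the 78 cells without. The shares had Pearson's r = 0.38 and Spearman's rho = 0.36 over 118 cells, r = 0.37 with each cell's genome-wide contact share removed, and 0.34 and 0.41 within cells 1 to 94 and 96 to 124. With the rest of chromosome 6 outside the flanks, r was 0.073, with the genome-wide contact share 0.12 and with recovered reads -0.023. Within the sets, r with recovered reads was 0.028 for cells 1 to 94 and -0.34 for cells 96 to 124, and the part of depth in the shares was not tested. These correlations are descriptions over cells of 1 clone, which differ in depth. Whether all cells were prepared together is not in the labels. Extended class I and the histone clusters had contact together in 5 cells, 35 cells had contact only in the first and 5 only in the second, and 73 had it in neither. Class I and class II had 2 and 4 cells in contact and shared none, which is too few cells to read a relation from.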

How the data were processed

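Lamina contacts were read by single-cell DamID of LaminB1 in 118 KBM7 cells. The authors deposited 1 table of a ratio, observed over expected reads, for each 100 kb bin and cell; that unit rests on the name and values of the table, and the origin of the expected part was not given in the sources used here. Cutadapt, Bowtie2 2.1.0 and hg19 are named per the submitters' processing notes. Bins were usable if no cell lacked a number and not all cells were at 0 (26426 of 30376); the bin from 26800001, at 0 in every cell, lies between members. Whole reads were recovered from the steps of the values (100% of values above 0, to 0.02 reads), and the procedure was tested on simulated data. That test left out bins with reads in few cells, where the recovered reads and expected parts are lower bounds. Bins were assigned to regions by start, and contact shares, paired differences within cells, exact Clopper-Pearson intervals at 95% and runs of consecutive usable bins in contact were computed with Python 3.11.15, numpy 2.4.6, pandas 2.3.3 and scipy 1.17.1. Intervals cover the counting of cells only. The bins named are the highest and lowest of each region, border bins, and steps of 20 points or more, beside bins picked by their values as stated. The members, regions and lists were chosen with earlier results of these data known. Alternatives were other contact values, 50000 reads per cell, subsets of cells or bins, other flanks and bridged runs; leaving out each cell in turn was added after seeing the data. Samples 33, 34, 44, 86, 95 and 120 were not analysed here.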

Additional observations from a re-analysis of the deposited data

How the results depend on the processing

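For 18 results, 12 alternatives gave 130 values, and 124 of them moved by less than their criterion. The criterion was 1 SD between cells for shares and differences, and 1 SD between runs for the run length. For counts of bins it was 1.5 times, and for the correlation with the upstream flank it was 0.1. At a contact value of 0.5 the share of class I rose to 1.25%, member bins without contact fell to 8 and member bins above 5% rose to 21. At a contact value of 2 the difference between the rest of chromosome 6 and the members was 22 points, and 2 member bins were above 5%. With each cell thinned to 50000 reads, which left out 9 shallower cells, 24 member bins had no contact. Extended class I had the highest mean of the 5 subregions under each of the 8 alternatives tried for it, whereas the lowest was class I or class III. No member bin reached 80% under any of the 7 alternatives tried for that count. The shares of all usable bins were not computed under the alternatives. These counts of member bins therefore have no background beside them, and a shift of the whole genome was not told apart. All 67 member bins had at least the expected reads that the alternative on bins asked for, so it changed nothing. The SD between cells exceeds the mean in each of the 5 subregions, so this criterion is wide and large moves stay within it. The share of extended class I was 12% at a contact value of 0.5 and 1.38% at 2 (5.56% as reported). The share of the histone clusters was 5.28% at 0.5, 0.326% at 2 and 2.54% when thinned (1.04%). When thinned, class I had 0.579%, class III 0.393% and class II 0.841%; at 0.5, class III had 1.21% and class II 2.4%; at 2, class I and class III had 0% and class II 0.141%. Leaving out 1 cell, an alternative chosen after seeing the data, moved the mean by over 1.5 times in the histone clusters (0.592% without cell 9), class I (0.045% without cell 108), class II (0.214% without cell 41), class III (0% without cell 121) and the downstream flank (0.0427% without cell 8). No paired analysis was possible because the series has a single group, with no replicate numbers shared between groups; the differences within cells compare regions of the same cell.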

Other observations

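The stretches between the members had values of their own. From 26400001 to 27000000, between the histone blocks, the mean share of the 5 usable bins in contact was 3.56% ± 9.29 (SD, n = 118). The bin from 26700001 had 13 cells in contact, but its expected part was 0.108 times the genome median and it held 19 reads over all cells, and 104 of 118 cells had no read there. The bin from 26900001, at 0.263 times, had 5 cells in contact and 19 reads, but recovery was not tested in bins with reads in so few cells. The bin from 27900001 to 28000000, between the histone clusters and extended class I, had 6 cells in contact (5.08%, exact 95% interval 1.89 to 10.7%) at 1.02 times the median and 178 reads. In cells 19, 48 and 104 its contact continued into the first bin of extended class I.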
